A study of Homo sapiens with 15 samples.

Results

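The genes described here are 37 regulators of chromatin and DNA methylation, taken by their symbols from the nCounter PanCancer Pathways panel, and all 37 were found among its 730 endogenous genes. The list is of genes by function and holds no threshold on a measured value, though earlier results of these data were known when it was drawn up. The panel counts RNA directly: each transcript binds a probe with a colour barcode, and the barcodes are tallied with no amplification step. The cells were HCT116, an established line of human colorectal carcinoma cells, in 5 groups of 3 samples. Control cells were left untreated. The TQ group received 40 µM thymoquinone, a quinone from black cumin. The 5-FU group received 15 µM 5-fluorouracil, a pyrimidine analogue that blocks thymidylate synthesis. The Combi group received 35 µM TQ together with 35 µM 5-FU, and the SARB group 35 µM of a hybrid in which TQ and 5-FU are joined through an esterification. All cells were collected 24 h after treatment, and no vehicle is named for the control. The labels do not say whether the 3 samples of a group came from separate cultures, so the p-values measure the spread between these samples, which may be technical. The RNA came from whole cultures, so fewer cells expressing a gene and less RNA per cell cannot be told apart.

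Chromatin regulators set how tightly DNA is packed and which genes can be read. SWI/SNF complexes, which contain ARID1A, ARID1B or ARID2, slide and evict nucleosomes. Acetyltransferases such as CREBBP, EP300 and KAT2B add acetyl groups to histone tails and histone deacetylases take them off, largely within corepressor complexes built on scaffolds such as SIN3A and NCOR1. Histone methyltransferases such as EZH2, SETD2, NSD1 and SUV39H2 write marks of silent or active chromatin that demethylases such as KDM5C and KDM6A erase, while DNMT1 copies DNA methylation after replication, DNMT3A sets it anew and TET2 oxidises it. Several of these genes, among them ARID1A, are recurrently mutated in colorectal cancer.

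Endogenous counts per sample ranged from 135017 to 607782. Of the 37 genes, 35 to 36 per sample exceeded background, taken as the mean of the 8 negative probes plus 2 SD, and 36 had a mean of at least 20 raw counts. SETBP1 was the gene below that mean. Counts were scaled by the geometric mean of the 40 housekeeping genes, and scaled counts are given below in the order of replicates 1, 2 and 3. A gene was called when edgeR's quasi-likelihood test over all 730 genes gave a p that was 0.05 or less after Benjamini-Hochberg adjustment and the change was at least 1.5-fold. The samples were read on 3 cartridges that did not divide the groups evenly. Control 1 and all TQ, 5-FU and SARB samples shared cartridge 1, controls 2 and 3 and Combi 1 shared cartridge 2, and Combi 2 and 3 were on cartridge 3. Control 1 lay below the mean of controls 2 and 3 by more than 0.5 on the log2 scale for 7 of the 37 genes and above it for 4, against 213 and 59 of all 730 genes. Each change of the 37 genes called against control or between SARB and Combi is also given from a fit with cartridge as a block. In that fit control 1 is the only control for TQ, 5-FU and SARB. Combi 2 and 3 had cartridge 3 to themselves, so Combi is compared through Combi 1 alone, with controls 2 and 3. Of the epithelial markers, 9 of 10 exceeded background in all samples, against 1 of 11 blood cell and 0 of 6 stromal markers. The summed scaled count of the epithelial markers was 5401 to 7081 in control and 6211 to 6289 with TQ. It was 17203 to 18180.0 with 5-FU, 15442 to 17202 with Combi and 13825 to 15983 with SARB. Within that sum SFN alone had a mean of 1170 in control, 2055 with TQ, 8304 with 5-FU, 7070 with Combi and 7347 with SARB. The markers did not move together. MET was not called in any treatment, and CDH1 was called lower with TQ, higher with Combi and not with 5-FU or SARB. The part of the sum in the results was not tested.

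Of the 37 genes, 18 were called against control in at least 1 treatment and 19 in none, and falls outnumbered rises in all 4 treatments. The largest called fall was that of PHF6 with TQ and the largest called rise that of KAT2B with 5-FU. With TQ, 7 fell and 1 rose, 18.9% and 2.70% of the list, against 21.6% and 3.42% of all genes. With 5-FU, 9 fell and 1 rose, 24.3% and 2.70%, against 10.1% of all genes in either direction. With Combi, 5 fell and 2 rose, 13.5% and 5.41%, against 6.58% and 13.6% of all genes. With SARB, 9 fell and 1 rose, 24.3% and 2.70%, against 20% and 8.63% of all genes. The median log2 fold change of the list was -0.32 with TQ, -0.28 with 5-FU, -0.16 with Combi and -0.28 with SARB, beside -0.47, -0.27, -0.10 and -0.41 over all 730 genes. The share of the list that fell was thus close to that of the panel with TQ and SARB and larger with 5-FU and Combi. The share that rose was close to that of the panel with TQ and smaller with 5-FU, Combi and SARB. These differences were not tested.

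**Figure D1:**
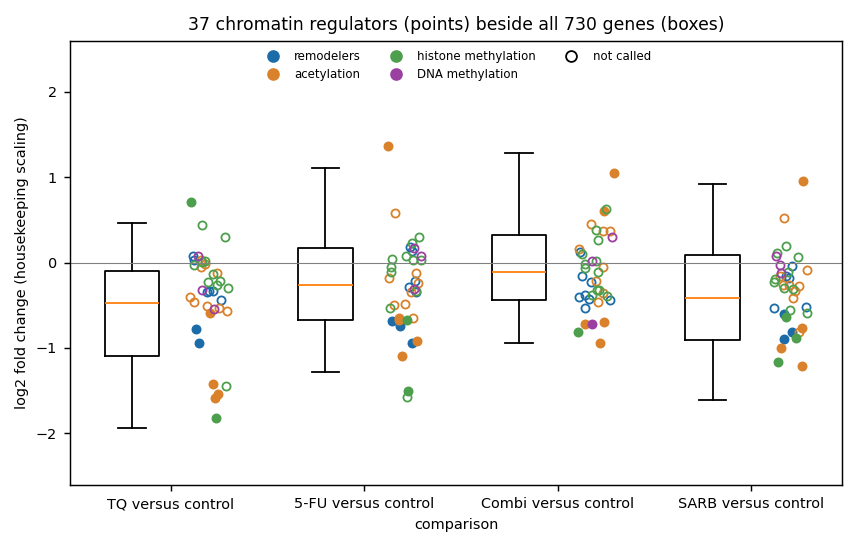
Log2 fold change against control (vertical axis, housekeeping scaling) for each treatment. Points are the 37 chromatin regulators, coloured by role and filled where called, with random horizontal offsets; boxes give the median and quartiles of all 730 genes, with whiskers at the 5th and 95th percentiles. The medians of the list and of all genes differed by at most 0.15, and KAT2B was the highest point with 5-FU, Combi and SARB.

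The counts depended on the scaling and on the cartridge. Scaling by TMM, which sets the bulk of the 730 genes to no change, moved the all-gene medians to between -0.07 and -0.02 and those of the list to 0.16, -0.08, -0.06 and 0.06 with TQ, 5-FU, Combi and SARB. Of the 37, 3 then fell and 3 rose with TQ (all genes 6.03% and 10.8%), 4 and 2 with 5-FU (5.62% and 14.2%), 5 and 2 with Combi (5.75% and 16.3%) and 3 and 2 with SARB (9.32% and 16.4%). With cartridge as a block, 3 fell with TQ (all genes 3.56% lower and 1.78% higher), 5 with 5-FU (5.34% and 8.08%), 2 with Combi (4.79% and 8.36%) and 4 with SARB (7.67% and 6.85%), and 0 of the 37 rose in any treatment. At an unadjusted edgeR p under 0.05 and without a limit on size, that fit had 8 genes lower and 1 higher with TQ. The numbers were 10 and 2 with 5-FU, 10 and 1 with Combi and 12 and 0 with SARB. The shares of all genes at that limit are not given here. No gene called against control changed direction under TMM.

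**Figure D2:**
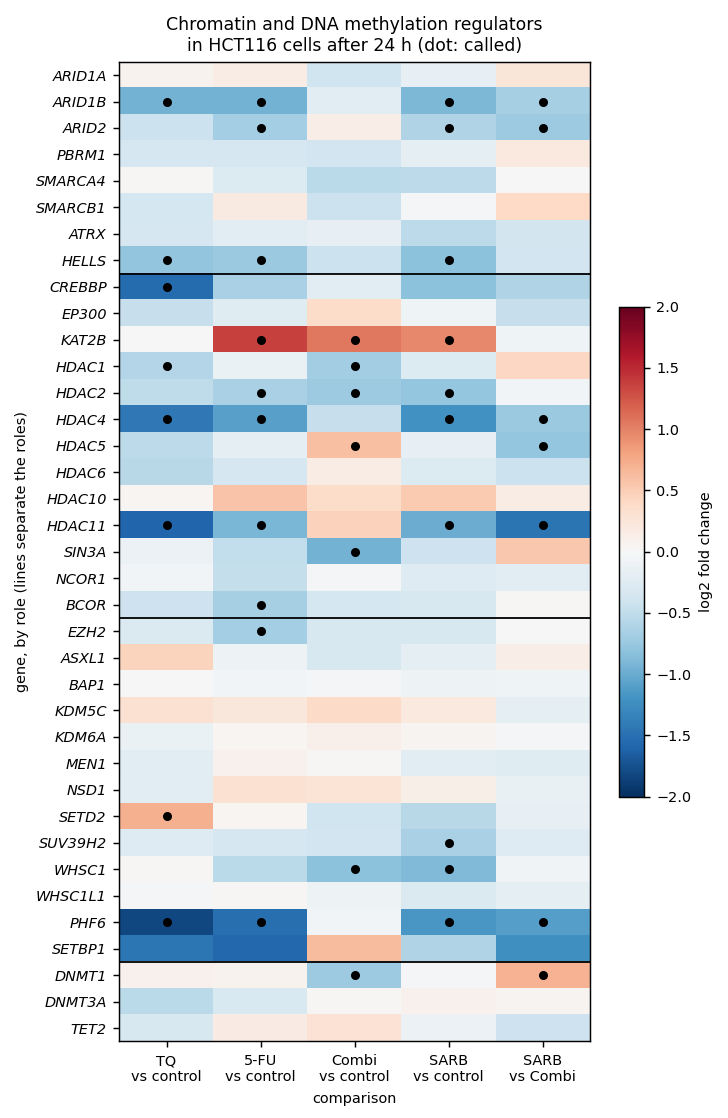
Log2 fold change (colour, from -2 to 2) of the 37 genes (rows, in 4 roles separated by lines) in each treatment against control and in SARB against Combi (columns), with a dot where the gene was called. ARID1B, HELLS, HDAC4, HDAC11 and PHF6 were called lower with TQ, 5-FU and SARB and not with Combi.

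Among the 8 chromatin remodelers, 2 fell with TQ, 3 with 5-FU, 3 with SARB and 0 with Combi, and none rose. These are 25%, 37.5%, 37.5% and 0%, against 21.6%, 10.1%, 20% and 6.58% of all genes lower, so the TQ share was near that of the panel. The 0 with Combi rests on the 1.5-fold limit. With Combi 7 of the 8 had a log2 fold change below 0. The median of the 8 was -0.39 with Combi, -0.34 with TQ, -0.31 with 5-FU and -0.52 with SARB. SMARCA4 had -0.53 with Combi (edgeR adjusted p = 7.6e-04), under that limit. ARID1B, a DNA-binding SWI/SNF subunit and the alternative to ARID1A in its complex, fell to nearly the same level under TQ, 5-FU and SARB. Scaled counts of ARID1B were 294, 351 and 375 in the control samples, 132, 182 and 208 with TQ, 165, 158 and 209.9 with 5-FU, 276, 294 and 299 with Combi and 168, 187 and 190.5 with SARB. All 9 samples of TQ, 5-FU and SARB lay below all controls, control 1 included, while Combi lay close to control 1 and below the other controls. The log2 fold change was -0.94 (SE 0.16, edgeR adjusted p = 1.8e-04) with TQ, -0.94 (SE 0.16, edgeR adjusted p = 8.6e-05) with 5-FU and -0.90 (SE 0.15, edgeR adjusted p = 8.3e-05) with SARB, against -0.23 with Combi, which was not called. The fall stayed called with cartridge as a block, at -0.73, -0.73 and -0.69, and was the only one of the list to do so in all 3 treatments. Under TMM it was called with 5-FU (-0.74) but not with TQ (-0.47) or SARB (-0.53).

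HELLS, a SNF2-family helicase needed for DNA methylation at repeats, also fell with TQ, 5-FU and SARB. Scaled counts of HELLS were 1136, 1766 and 1649 in the control samples, 872, 899 and 873 with TQ, 977, 879 and 869 with 5-FU, 1282, 1066 and 1038 with Combi and 926, 837 and 827 with SARB. Every TQ, 5-FU and SARB sample was below every control, but control 1 stood well under controls 2 and 3 and within the range of Combi. HELLS fell by 0.78 (SE 0.14, edgeR adjusted p = 2.7e-04) with TQ, 0.74 (SE 0.14, edgeR adjusted p = 2.7e-04) with 5-FU and 0.81 (SE 0.14, edgeR adjusted p = 7.8e-05) with SARB on the log2 scale. With cartridge as a block these values were -0.37, -0.32 and -0.40, and under TMM -0.31, -0.53 and -0.45, none of them called. With Combi the log2 fold change of HELLS, without a cartridge term, was -0.43 (edgeR adjusted p = 0.019), under the 1.5-fold limit.

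ARID2, the subunit that defines the PBAF form of SWI/SNF, fell with 5-FU and SARB. Scaled counts of ARID2 were 355, 420.3 and 412 in the control samples, 301, 273 and 309 with TQ, 219, 247 and 274 with 5-FU, 357, 470.0 and 467 with Combi and 309, 287 and 197 with SARB. The 5-FU and SARB samples lay below all controls, and Combi 2 and 3 were the highest of all samples. The log2 fold change was -0.68 (SE 0.16, edgeR adjusted p = 0.0028) with 5-FU and -0.60 (SE 0.16, edgeR adjusted p = 0.0063) with SARB. Neither was called with cartridge as a block (-0.53 and -0.44) or under TMM (-0.49 and -0.26), and the SARB value was -0.55 without control 2, -0.57 without control 3 and -0.41 without SARB 3, not called in any of those fits. The other remodelers were not called in any treatment: ARID1A ranged from -0.40 to 0.14 on the log2 scale across the 4 treatments, PBRM1 from -0.38 to -0.18, SMARCA4 from -0.53 to 0.03, SMARCB1 from -0.43 to 0.18 and ATRX from -0.52 to -0.16.

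**Figure D3:**
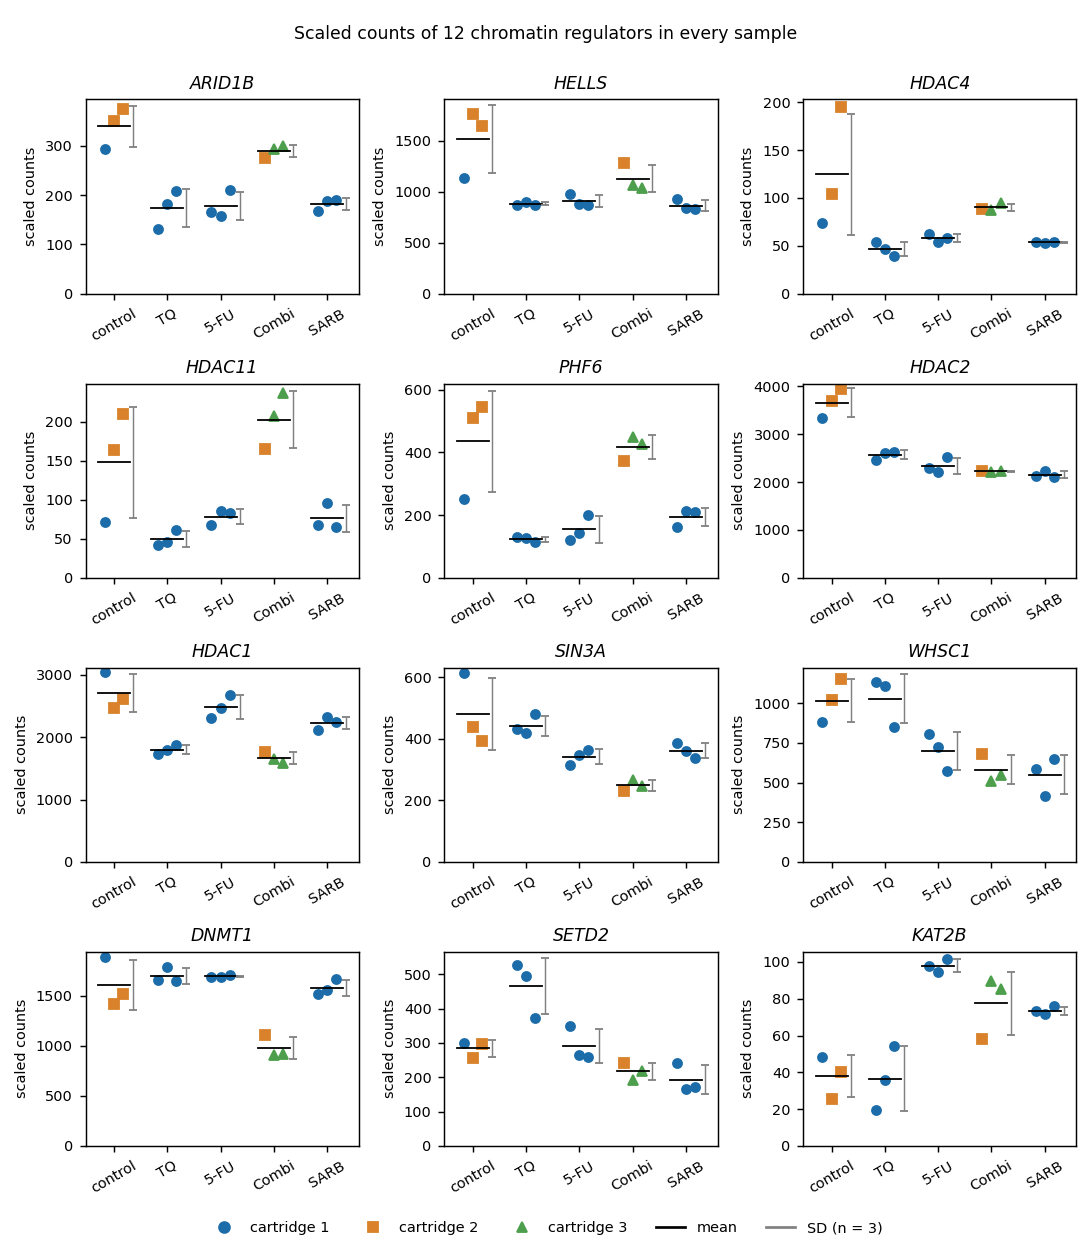
Scaled counts (vertical axes, from 0) of ARID1B, HELLS, HDAC4, HDAC11, PHF6, HDAC2, HDAC1, SIN3A, WHSC1, DNMT1, SETD2 and KAT2B in every sample by group, with the marker giving the cartridge, a black line the mean and a grey bar the SD of 3 samples. For HDAC4, HDAC11 and PHF6 the control on cartridge 1 lay nearer the treated samples of that cartridge than the controls on cartridge 2 did; for ARID1B and HDAC2 it lay apart from them.

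The 13 acetyltransferases, deacetylases and corepressors held the strongest rise of the list. With TQ, 4 fell and none rose, with 5-FU 4 fell and 1 rose, with Combi 3 fell and 2 rose, and with SARB 3 fell and 1 rose. The shares lower were 30.8%, 30.8%, 23.1% and 23.1%, against 21.6%, 10.1%, 6.58% and 20% of all genes. The shares higher were 0%, 7.69%, 15.4% and 7.69%, against 3.42%, 10.1%, 13.6% and 8.63%, near the panel with 5-FU, Combi and SARB. KAT2B, also known as PCAF, rose with every treatment that contained 5-FU or the hybrid and not with TQ alone. Scaled counts of KAT2B were 48.4, 25.7 and 40.3 in the control samples, 19.6, 35.8 and 54.6 with TQ, 97.7, 94.5 and 101 with 5-FU, 57.9, 89.6 and 85.0 with Combi and 73.3, 71.5 and 75.8 with SARB. All 5-FU, Combi and SARB samples were above all controls, and the TQ samples spread on both sides of the controls. The log2 fold change was 1.37 (SE 0.28, edgeR adjusted p = 6.4e-04) with 5-FU, 1.05 (SE 0.27, edgeR adjusted p = 0.0049) with Combi and 0.96 (SE 0.27, edgeR adjusted p = 0.0094) with SARB, and -0.01 with TQ. These rises stayed called under TMM, at 1.56, 1.16 and 1.33. With cartridge as a block they were 1.01, 0.82 and 0.61 and not called, and the SARB value was 0.73 without control 2, not called. KAT2B was a low-count gene, so its fold changes carried larger errors than those of most of the list. It exceeded background in 13 of the 15 samples. Controls 2 and 3 did not, at 17 and 24 raw counts against backgrounds of 26.4 and 24.9, so the baseline of these rises lay near background.

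CREBBP, the acetyltransferase CBP, fell with TQ, at few counts. Scaled counts of CREBBP were 50.2, 69.5 and 84.0 in the control samples, 39.2, 19.1 and 17.1 with TQ, 30.5, 31.9 and 68.1 with 5-FU, 84.1, 43.7 and 50.9 with Combi and 37.6, 68.8 and 16.7 with SARB. The TQ samples were below all controls, though TQ 1 was close to control 1, and the other treatments had values on both sides of control 1. The log2 fold change with TQ was -1.54 (SE 0.48, edgeR adjusted p = 0.019). It was not called with cartridge as a block (-1.11) or under TMM (-1.07), and was -1.36 without control 3, -1.33 without TQ 2 and -1.39 without TQ 3, not called. Its paralogue EP300 ranged from -0.47 to 0.37 across the treatments and was not called.

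The class I deacetylases HDAC1 and HDAC2, which occupy the same corepressor complexes, both fell with Combi, HDAC2 also with 5-FU and SARB and HDAC1 also with TQ. Scaled counts of HDAC2 were 3339.7, 3690.1 and 3943 in the control samples, 2468, 2612 and 2629.7 with TQ, 2283, 2211 and 2519.8 with 5-FU, 2231, 2211 and 2224 with Combi and 2117, 2234 and 2102 with SARB. Every treated sample lay below every control, in all 4 treatments. HDAC2 fell by 0.65 (SE 0.10, edgeR adjusted p = 2.7e-05) with 5-FU, 0.72 (SE 0.10, edgeR adjusted p = 6.4e-06) with Combi and 0.77 (SE 0.10, edgeR adjusted p = 3.1e-06) with SARB on the log2 scale, and its log2 fold change with TQ was -0.51, under the 1.5-fold limit. With cartridge as a block it stayed called with Combi (-0.77) and SARB (-0.64) but not with 5-FU (-0.51), and under TMM with Combi alone (-0.63, against -0.45 with 5-FU and -0.42 with SARB).

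Scaled counts of HDAC1 were 3042, 2463 and 2612 in the control samples, 1731, 1797 and 1874 with TQ, 2299, 2461 and 2679.7 with 5-FU, 1770.0, 1643 and 1594 with Combi and 2120.1, 2319 and 2250.5 with SARB. The TQ and Combi samples were the lowest and did not overlap the controls, whereas 5-FU did overlap them and SARB lay between. HDAC1 fell by 0.59 (SE 0.11, edgeR adjusted p = 3.5e-04) with TQ and 0.70 (SE 0.10, edgeR adjusted p = 2.4e-05) with Combi on the log2 scale, and its log2 fold change was -0.13 with 5-FU and -0.28 with SARB. With cartridge as a block the TQ value was -0.76 and called and the Combi value -0.52 and not called. Under TMM the Combi fall stayed called (-0.62) and the TQ value was -0.14. The TQ value was -0.49 without control 1, -0.56 without TQ 1 and -0.58 without TQ 2, not called in those fits.

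HDAC4, a class IIa deacetylase that shuttles between nucleus and cytoplasm, and HDAC11, the single class IV enzyme, fell with TQ, 5-FU and SARB, and in both the controls themselves were far apart. Scaled counts of HDAC4 were 74.4, 104 and 195 in the control samples, 53.9, 46.9 and 39.2 with TQ, 62.3, 54.5 and 58.4 with 5-FU, 88.6, 87.5 and 94.6 with Combi and 54.0, 52.6 and 54.1 with SARB. All TQ, 5-FU and SARB samples were below control 1, the lowest control, and Combi lay between control 1 and control 2. In log2 units the change was -1.43 (SE 0.27, edgeR adjusted p = 5.0e-04) with TQ, -1.09 (SE 0.26, edgeR adjusted p = 0.0024) with 5-FU and -1.21 (SE 0.25, edgeR adjusted p = 6.4e-04) with SARB. Blocked on cartridge, the values were -0.68, -0.35 and -0.47, and none was called. Without control 3, the highest control, the falls stayed called at -0.95 with TQ, -0.62 with 5-FU and -0.74 with SARB.

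Scaled counts of HDAC11 were 70.9, 163 and 210.1 in the control samples, 41.6, 45.6 and 61.4 with TQ, 67.2, 85.1 and 83.4 with 5-FU, 165, 207 and 237 with Combi and 67.5, 95.7 and 65.0 with SARB. Control 1 was far below the other controls and lay among the 5-FU and SARB samples, so those groups overlapped the controls, while the TQ samples lay below them all. On the log2 scale the change was -1.59 (SE 0.30, edgeR adjusted p = 5.0e-04) with TQ, -0.92 (SE 0.28, edgeR adjusted p = 0.015) with 5-FU and -0.997 (SE 0.27, edgeR adjusted p = 0.0062) with SARB. With the cartridge term it was -0.53 with TQ and turned to 0.14 with 5-FU and 0.06 with SARB, none of them called. Leaving out samples gave -0.84 without control 2, -0.59 without control 3 and -0.82 without 5-FU 1 for 5-FU and -0.67 without control 3 for SARB, not called.

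HDAC5, another class IIa enzyme, rose with Combi. Scaled counts of HDAC5 were 116, 145 and 149.6 in the control samples, 78.3, 102 and 98.9 with TQ, 111, 126 and 125 with 5-FU, 169, 233 and 219 with Combi and 129, 133 and 109 with SARB. Combi lay above all other samples, its first replicate close to the highest control. Its log2 fold change was 0.61 (SE 0.16, edgeR adjusted p = 0.0059). It was 0.20 with cartridge as a block and not called, and was 0.50 without control 1, 0.51 without Combi 2 and 0.57 without Combi 3, not called. HDAC6, a mainly cytoplasmic tubulin deacetylase, ranged from -0.56 to 0.15 across the treatments and HDAC10, a polyamine deacetylase, from 0.04 to 0.58, with no call.

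The corepressor genes differed among themselves. SIN3A, the scaffold that carries HDAC1 and HDAC2, fell with Combi. Scaled counts of SIN3A were 612, 438 and 392 in the control samples, 431, 418 and 479 with TQ, 315, 346 and 364 with 5-FU, 232, 268 and 247 with Combi and 388, 360.0 and 338 with SARB. Combi was below every other sample, and control 1 was the highest control. In log2 units the change with Combi was -0.94 (SE 0.14, edgeR adjusted p = 2.7e-05), and it stayed called with cartridge as a block (-0.84) and under TMM (-0.87). In the fit blocked on cartridge SIN3A was also called lower with 5-FU (-0.84, adjusted p = 4.8e-04) and SARB (-0.76, adjusted p = 9.8e-04), where its values without that term were -0.49 and -0.41.

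BCOR, a corepressor that also joins a variant Polycomb complex, fell with 5-FU. Scaled counts of BCOR were 199, 157 and 198 in the control samples, 125, 126 and 169 with TQ, 106, 104 and 139 with 5-FU, 128, 134 and 168 with Combi and 130.2, 171 and 143 with SARB. The 5-FU samples were below all controls, and the other treatments lay between or among them. On the log2 scale the change with 5-FU was -0.67 (SE 0.18, edgeR adjusted p = 0.0075), with -0.78 and a call with cartridge as a block and -0.48 and no call under TMM. NCOR1 ranged from -0.48 to -0.05 across the treatments and was not called.

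**Figure D4:**
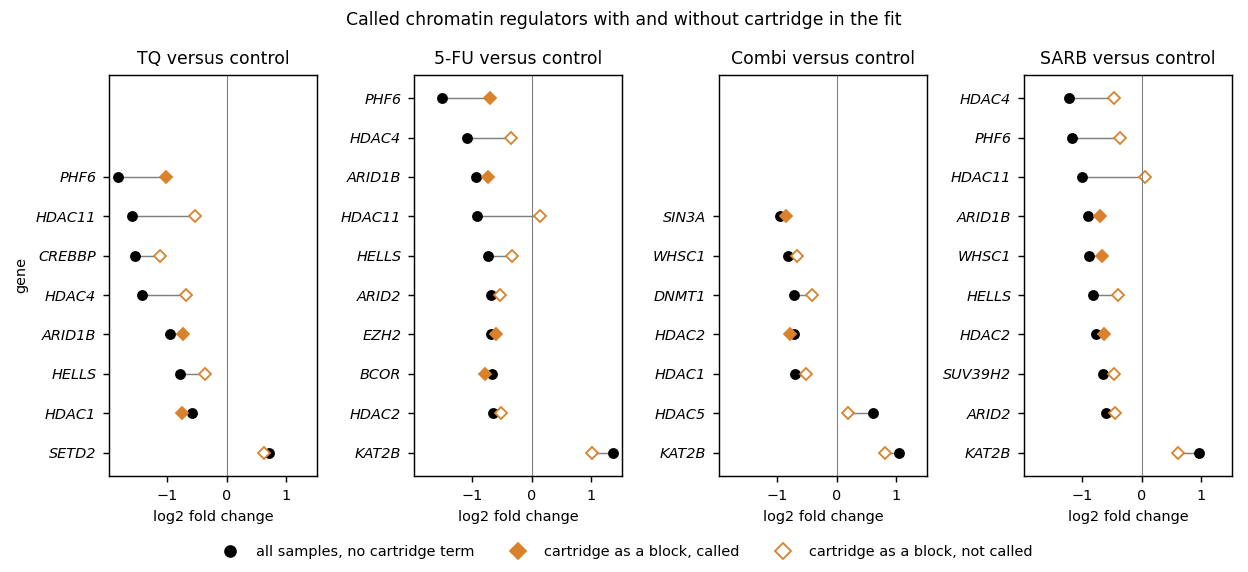
Log2 fold change against control (horizontal axes) of each called gene in each treatment without a cartridge term (black circles) and with cartridge as a block (diamonds, filled where still called). HDAC4, HDAC11 and PHF6 moved most towards 0, ARID1B, HDAC2, SIN3A and EZH2 little, and HDAC11 crossed 0 with 5-FU and SARB.

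The 13 histone methylation and Polycomb-linked genes had 1 lower and 1 higher with TQ, 2 lower with 5-FU, 1 lower with Combi and 3 lower with SARB. The shares lower were 7.69%, 15.4%, 7.69% and 23.1%, against 21.6%, 10.1%, 6.58% and 20% of all genes. They were below the panel with TQ, above it with 5-FU and near it with Combi and SARB. With cartridge as a block they were 7.69%, 15.4%, 0% and 7.69%, against 3.56%, 5.34%, 4.79% and 7.67% of all genes. PHF6, a PHD-finger protein mutated in leukaemia, fell with TQ, 5-FU and SARB. Scaled counts of PHF6 were 251, 509 and 545 in the control samples, 129.8, 126 and 114 with TQ, 119.7, 142 and 202 with 5-FU, 374, 450.0 and 427 with Combi and 161, 213 and 209.6 with SARB. All TQ, 5-FU and SARB samples lay below control 1, which itself was far below controls 2 and 3, and Combi lay between control 1 and the others. Its log2 fold change was -1.82 (SE 0.23, edgeR adjusted p = 8.1e-06) with TQ, -1.50 (SE 0.23, edgeR adjusted p = 2.7e-05) with 5-FU and -1.16 (SE 0.22, edgeR adjusted p = 2.4e-04) with SARB. Blocked on cartridge, it was -1.02 with TQ and -0.70 with 5-FU, both called, and -0.36 with SARB, not called.

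EZH2, the catalytic subunit of Polycomb repressive complex 2, which methylates histone H3 at lysine 27, fell with 5-FU. Scaled counts of EZH2 were 929, 1005 and 1012 in the control samples, 815, 769 and 819 with TQ, 611, 573 and 663 with 5-FU, 921, 742 and 708 with Combi and 698, 863 and 812 with SARB. The 5-FU samples were below every other sample, and the other treatments lay between them and the controls. In log2 units the change was -0.67 (SE 0.12, edgeR adjusted p = 2.0e-04) and stayed called with cartridge as a block at -0.59. Under TMM it was -0.48 and not called.

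SETD2, the enzyme that trimethylates lysine 36 of histone H3, was the one gene of the list that rose with TQ. Scaled counts of SETD2 were 301, 255 and 296 in the control samples, 526, 496 and 373 with TQ, 349, 266 and 259 with 5-FU, 241, 193 and 217 with Combi and 243, 166 and 172 with SARB. All TQ samples were above all controls, while Combi lay below them and the SARB samples did too. On the log2 scale the change with TQ was 0.71 (SE 0.17, edgeR adjusted p = 0.004), 1.18 and called under TMM, and 0.63 and not called with cartridge as a block.

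WHSC1, now named NSD2, a methyltransferase for lysine 36, fell with Combi and SARB. Scaled counts of WHSC1 were 879, 1019 and 1151 in the control samples, 1131, 1107 and 849 with TQ, 805, 726 and 571 with 5-FU, 683, 509 and 550.4 with Combi and 583, 415 and 650.1 with SARB. All Combi and SARB samples lay below all controls, TQ overlapped the controls, and all 5-FU samples lay below control 1. Its log2 fold change was -0.81 (SE 0.17, edgeR adjusted p = 7.4e-04) with Combi and -0.88 (SE 0.17, edgeR adjusted p = 3.4e-04) with SARB, against -0.54 with 5-FU and 0.02 with TQ, which were not called. With the cartridge term SARB stayed called (-0.66) and Combi did not (-0.67), and under TMM Combi stayed called (-0.72) and SARB did not (-0.49).

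SUV39H2, a methyltransferase of heterochromatin that acts on lysine 9 of histone H3, fell with SARB. Scaled counts of SUV39H2 were 358, 434 and 427 in the control samples, 328, 342 and 349.6 with TQ, 322, 277 and 368 with 5-FU, 345, 289.8 and 304 with Combi and 290.2, 264 and 231 with SARB. The SARB samples lay below all controls. In log2 units the change with SARB was -0.64 (SE 0.14, edgeR adjusted p = 8.5e-04), against -0.46 with cartridge as a block and -0.29 under TMM, neither called, and -0.55 without SARB 3, not called. The remaining genes of this role were not called against control: ASXL1 ranged from -0.32 to 0.44 across the treatments, BAP1 from -0.11 to 0.01, KDM5C from 0.19 to 0.38, KDM6A from -0.14 to 0.10, MEN1 from -0.23 to 0.08, NSD1 from -0.22 to 0.30 and WHSC1L1 from -0.29 to 0.03. BAP1, the Polycomb deubiquitinase, stayed closest to 0 of all 37 genes in these 4 comparisons. SETBP1 ranged from -1.57 to 0.63 at counts close to background, where its fold changes carry little information.

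Of the 3 genes of DNA methylation, DNMT1 fell with Combi and no other call was made against control. Scaled counts of DNMT1 were 1890.3, 1416 and 1518 in the control samples, 1655, 1786 and 1653 with TQ, 1689, 1691 and 1704 with 5-FU, 1108, 907 and 918 with Combi and 1515, 1557 and 1670.3 with SARB. The Combi samples lay below every other sample, and TQ, 5-FU and SARB were within the range of the controls. On the log2 scale the change with Combi was -0.72 (SE 0.12, edgeR adjusted p = 5e-05) and stayed called under TMM (-0.65). In the fit blocked on cartridge it was -0.41, under the 1.5-fold limit. DNMT3A ranged from -0.54 to 0.08 across the treatments and TET2 from -0.32 to 0.30.

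The genes called lower in at least 2 treatments were ARID1B, ARID2, HELLS, HDAC1, HDAC2, HDAC4, HDAC11, WHSC1 and PHF6. Promoters of these genes are shown because they fell in several treatments. RefSeq promoter windows, from 250 bases before to 50 bases after a transcription start, were matched for 31 of the 37 genes and for 7 of these 9. The windows were searched on both strands for TTTGGCGC, TTTCGCGC and TTCCCGCC, letters of the E2F site found at many S-phase genes, and for CCAAT, the box bound by NF-Y. These letters occur in 0.652%, 0.515%, 3.16% and 34.6% of all 35116 promoter windows. The 5 genes with a single listed window are printed 5′ to 3′ along the gene, with matches in capitals. They are HELLS at chr10:94545538-94545837 on the plus strand, HDAC1 at chr1:32291833-32292132 on the plus strand, HDAC2 at chr6:113971099-113971398 on the minus strand, HDAC11 at chr3:13480056-13480355 on the plus strand and WHSC1 at chr4:1871143-1871442 on the plus strand, all in GRCh38.p14.
HELLS: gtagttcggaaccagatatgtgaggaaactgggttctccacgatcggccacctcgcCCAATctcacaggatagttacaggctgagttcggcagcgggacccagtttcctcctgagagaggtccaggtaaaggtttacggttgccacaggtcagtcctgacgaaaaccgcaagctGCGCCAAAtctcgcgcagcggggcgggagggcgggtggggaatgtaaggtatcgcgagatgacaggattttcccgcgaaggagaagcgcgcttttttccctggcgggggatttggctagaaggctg
HDAC1: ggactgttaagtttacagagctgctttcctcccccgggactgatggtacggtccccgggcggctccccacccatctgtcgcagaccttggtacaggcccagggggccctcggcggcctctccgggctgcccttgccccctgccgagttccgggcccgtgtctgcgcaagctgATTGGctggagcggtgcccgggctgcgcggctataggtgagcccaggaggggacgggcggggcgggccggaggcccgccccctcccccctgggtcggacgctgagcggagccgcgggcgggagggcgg
HDAC2: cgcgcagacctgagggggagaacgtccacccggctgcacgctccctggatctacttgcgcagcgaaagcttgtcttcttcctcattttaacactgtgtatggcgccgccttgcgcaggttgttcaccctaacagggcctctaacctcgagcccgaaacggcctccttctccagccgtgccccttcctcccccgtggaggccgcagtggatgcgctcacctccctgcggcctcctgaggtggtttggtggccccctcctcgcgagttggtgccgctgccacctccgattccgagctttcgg
HDAC11: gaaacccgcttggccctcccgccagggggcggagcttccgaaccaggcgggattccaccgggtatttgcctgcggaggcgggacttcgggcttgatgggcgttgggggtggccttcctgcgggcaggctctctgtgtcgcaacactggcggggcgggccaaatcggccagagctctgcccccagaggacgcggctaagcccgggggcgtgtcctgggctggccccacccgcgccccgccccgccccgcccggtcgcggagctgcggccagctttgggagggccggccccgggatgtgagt
WHSC1: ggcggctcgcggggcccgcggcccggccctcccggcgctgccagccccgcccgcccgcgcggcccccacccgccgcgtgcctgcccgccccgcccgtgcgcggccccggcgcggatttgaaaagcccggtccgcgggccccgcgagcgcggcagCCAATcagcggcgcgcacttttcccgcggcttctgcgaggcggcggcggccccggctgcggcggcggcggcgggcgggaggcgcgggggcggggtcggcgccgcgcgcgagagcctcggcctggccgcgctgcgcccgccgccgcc
HELLS held TTTGGCGC, read on the opposite strand upstream of the start, and a separate CCAAT. HDAC1 and WHSC1 held a CCAAT, HDAC2 and HDAC11 held none of the searched letters. Of the genes with several windows, ARID1B held a CCAAT in 1 of 2 and HDAC4 a TTCCCGCC in 1 of 5. The matches describe these windows only, and no binding was measured.

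SARB and Combi were given at the same concentration for the same time and differ in whether TQ and 5-FU are joined or mixed. In this matched comparison 6 of the 37 genes were lower with SARB and 1 higher, 16.2% and 2.70%, against 11.2% and 0.959% of all genes. The list's median log2 difference was -0.16, beside -0.32 over all genes. Under TMM 2 were lower and 4 higher, against 7.40% and 5.34% of all genes. No remodeler was lower under TMM, so the calls of ARID1B and ARID2 given below were not kept. Among the 13 acetyltransferases, deacetylases and corepressors 1 was lower, against 3 with housekeeping scaling. The values that follow are from housekeeping scaling. DNMT1 was higher with SARB by 0.70 (95% interval 0.46 to 0.94, edgeR adjusted p = 3.0e-04) on the log2 scale. HDAC11 was lower with a log2 difference of -1.46 (95% interval -1.98 to -0.93, edgeR adjusted p = 4.0e-04), PHF6 with -1.10 (95% interval -1.54 to -0.66, edgeR adjusted p = 0.0012) and HDAC5 with -0.77 (95% interval -1.08 to -0.45, edgeR adjusted p = 0.0017). ARID2 followed with -0.73 (95% interval -1.05 to -0.40, edgeR adjusted p = 0.003), ARID1B with -0.67 (95% interval -0.98 to -0.36, edgeR adjusted p = 0.0032) and HDAC4 with -0.75 (95% interval -1.25 to -0.25, edgeR adjusted p = 0.035). In each of the 7 the samples of the 2 groups did not overlap, which adds little, since the calls rest on the same values. ARID1A, ATRX, HELLS, HDAC1, HDAC6, SIN3A, SETBP1 and TET2 did not overlap either and were not called. The share of all genes without overlap is not given here. ARID2 was -0.54 without SARB 3 and HDAC4 was -0.77 without Combi 2, -0.71 without Combi 3, -0.75 without SARB 1 and -0.76 without SARB 3, not called in those fits.

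No SARB sample shared a cartridge with a Combi sample, so the comparison is tied across cartridges only through the controls. With cartridge as a block it rests on control 1 for SARB, and on Combi 1 and controls 2 and 3 for Combi. Blocked on cartridge, 0 of the 37 genes were called, beside 0.137% of all genes lower and 0% higher, and 0 had an unadjusted edgeR p under 0.05. The differences then were 0.15 for DNMT1, -0.30 for ARID1B, -0.22 for ARID2 and -0.12 for HDAC5. They turned in direction to 0.28 for HDAC4, 0.24 for HDAC11 and 0.13 for PHF6. Hybrid and mixture therefore cannot be told apart from cartridge for any of the 37 genes. The intervals that follow are from the fit without a cartridge term and hold cartridge and compound together. Of the 30 genes not called, 19 had an interval that stayed within 1.5-fold either way, KAT2B at -0.09 (95% interval -0.58 to 0.39), HDAC2 at -0.05 (95% interval -0.25 to 0.15), EZH2 at 0.00 (95% interval -0.24 to 0.25) and WHSC1 at -0.06 (95% interval -0.41 to 0.29) among them. For the other 11 a difference of 1.5-fold was within the interval, as for SIN3A at 0.53 (95% interval 0.24 to 0.83), HDAC1 at 0.42 (95% interval 0.20 to 0.64) and HELLS at -0.38 (95% interval -0.67 to -0.10). With cartridge as a block, 9 of the 37 intervals stayed within 1.5-fold and 28 did not.

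**Figure D5:**
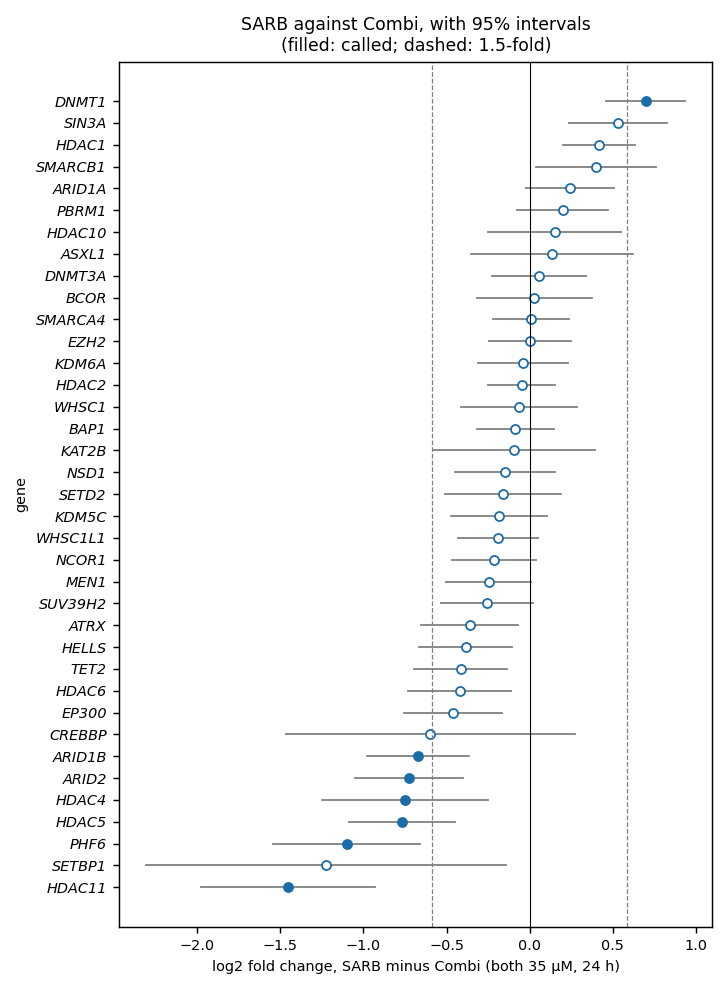
Log2 difference of SARB minus Combi (horizontal axis, both at 35 µM for 24 h) for the 37 genes, ordered by value, with 95% intervals from the fit without a cartridge term. Filled points were called and dashed lines mark 1.5-fold; DNMT1 is the one gene called higher, and HDAC11 has the largest called difference in the other direction.

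TQ, 5-FU and SARB samples were all read on cartridge 1, so the 3 pairs can be set side by side without a cartridge difference. Their doses differ (40, 15 and 35 µM), and compound and dose cannot be told apart. Against TQ, 3 of the 37 genes were higher with SARB and 2 lower, 8.11% and 5.41%, beside 13.8% and 5.62% of all genes. Under TMM the balance was the other way, with 1 higher and 4 lower, 2.70% and 10.8%, beside 11.0% and 8.08% of all genes, the added lower calls being SMARCA4 (-0.67, from -0.56) and ASXL1 (-0.74, from -0.63). SETD2 stood at 526, 496 and 373 with TQ and 243, 166 and 172 with SARB, a log2 difference of -1.27 (95% interval -1.62 to -0.92, edgeR adjusted p = 7.3e-06). The TQ and SARB samples of SETD2 did not overlap. WHSC1 stood at 1131, 1107 and 849 with TQ and 583, 415 and 650.1 with SARB, at -0.90 (95% interval -1.25 to -0.54, edgeR adjusted p = 3.8e-04), again without overlap. On the log2 scale KAT2B was higher with SARB by 0.97 (95% interval 0.41 to 1.53, edgeR adjusted p = 0.0096), DNMT3A by 0.62 (95% interval 0.31 to 0.93, edgeR adjusted p = 0.0034) and PHF6 by 0.66 (95% interval 0.17 to 1.14, edgeR adjusted p = 0.041). DNMT3A stood at 88.1, 93.7 and 92.1 with TQ and 126, 159 and 141 with SARB. Left-out samples ended the calls of KAT2B (0.91 without TQ 2), DNMT3A (0.55 without SARB 2) and PHF6 (0.68 without TQ 1, 0.68 without TQ 2, 0.61 without TQ 3, 0.60 without SARB 2 and 0.59 without SARB 3), and TMM those of DNMT3A (0.50) and PHF6 (0.54).

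Between 5-FU and TQ, 1 gene was higher with 5-FU and 1 lower, 2.70% each, beside 14.4% and 3.15% of all genes. Under TMM 1 was higher and 6 lower, 2.70% and 16.2%, beside 9.59% and 8.22% of all genes, and the median log2 difference of the list moved from 0.06 to -0.21. The added lower calls were SIN3A (-0.64), NCOR1 (-0.69), EZH2 (-0.64), ASXL1 (-0.80) and WHSC1 (-0.81). KAT2B was the higher one, at 1.38 (95% interval 0.82 to 1.94, edgeR adjusted p = 5.4e-04), and SETD2 the lower one, at -0.67 (95% interval -1.02 to -0.33, edgeR adjusted p = 0.0045). Neither gene's samples overlapped between the groups. All 7 calls of these pairs were kept with cartridge as a block and in a fit on cartridge 1 alone. With the block HDAC11 was called in addition, higher than TQ by 0.59 (edgeR adjusted p = 0.036) with SARB and by 0.67 (edgeR adjusted p = 0.023) with 5-FU on the log2 scale. Between SARB and 5-FU, 0 of the 37 were called by edgeR or DESeq2, beside 1.23% of all genes lower and 0% higher with edgeR. At an unadjusted edgeR p under 0.05, 7 were lower and 2 higher with SARB, and the share of all genes at that limit is not given here. For 24 of the 37 the interval of that difference stayed within 1.5-fold. For the others the interval reached beyond 1.5-fold, as for CREBBP at -0.16 (95% interval -1.08 to 0.75) and KAT2B at -0.41 (95% interval -0.91 to 0.09). EZH2, at 0.36 (95% interval 0.11 to 0.61), was among them with a narrower interval that lay above 0.

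Other chromatin genes of the panel also fell. Of 14 histone, IDH and further chromatin genes, 7 fell with TQ, 6 with 5-FU, 5 with Combi and 6 with SARB, and 1 rose, KMT2C with Combi at 0.66 (edgeR adjusted p = 0.0018). The shares lower were 50.0%, 42.9%, 35.7% and 42.9%, against 21.6%, 10.1%, 6.58% and 20% of all genes. Their median log2 fold changes were -0.46, -0.52, -0.45 and -0.58. Under TMM 0, 4, 3 and 5 of the 14 fell, which is 0%, 28.6%, 21.4% and 35.7%, against 6.03%, 5.62%, 5.75% and 9.32% of all genes. With cartridge in the fit 2, 5, 6 and 6 fell, 14.3%, 35.7%, 42.9% and 42.9%, against 3.56%, 5.34%, 4.79% and 7.67%. The fold changes that follow are from the fit without a cartridge term. The replication-dependent histone gene HIST1H3B fell by 0.80 with TQ, and its log2 fold change was -2.73 (edgeR adjusted p = 5.6e-09) with 5-FU, -2.30 with Combi and -2.70 with SARB. HIST1H3H was not called with TQ (-0.22) and had -3.35 with 5-FU, -3.51 with Combi and -3.59 with SARB. HIST1H3G, above background in 9 of the 15 samples, was not called in any treatment. Near-identical histone genes can share a probe, so the values of these histone genes may hold more than 1 gene. H2AFX, which encodes the H2A variant phosphorylated at DNA breaks, fell in all 4 treatments, at -1.02, -0.93, -1.53 and -1.16. IDH1, whose mutant product inhibits TET enzymes and histone demethylases, fell with TQ (-0.80), 5-FU (-1.69) and SARB (-1.54). Of 18 DNA replication genes, 1 rose and 1 fell with TQ, 4 and 4 with 5-FU, 3 and 4 with Combi and 1 and 4 with SARB. The shares lower were 5.56%, 22.2%, 22.2% and 22.2%, against 21.6%, 10.1%, 6.58% and 20% of all genes, and the shares higher 5.56%, 22.2%, 16.7% and 5.56%, against 3.42%, 10.1%, 13.6% and 8.63%. Under TMM 3 rose and 0 fell with TQ, 5 and 2 with 5-FU, 4 and 4 with Combi and 6 and 2 with SARB. The shares higher were then 16.7%, 27.8%, 22.2% and 33.3%, against 10.8%, 14.2%, 16.3% and 16.4% of all genes. The shares lower were 0%, 11.1%, 22.2% and 11.1%, against 6.03%, 5.62%, 5.75% and 9.32%. All genes, too, rose more often than they fell under TMM. With cartridge in the fit 1, 3, 2 and 3 rose and as many fell. All genes then had 1.78%, 8.08%, 8.36% and 6.85% higher and 3.56%, 5.34%, 4.79% and 7.67% lower. The helicase subunits MCM4, MCM5 and MCM7 fell in the 3 treatments other than TQ, MCM7 at -0.73 with 5-FU, -1.03 with Combi and -0.92 with SARB. MCM2 was not called in any treatment. The genes that rose were CCNE1 with TQ (0.79), 5-FU (0.64) and Combi (0.82) and CDC25A with 5-FU (0.65) and SARB (0.66). POLD4 (0.62) and CCNE2 (0.77) also rose with 5-FU, and PCNA (0.72) and POLD1 (0.61) with Combi.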

How the data were processed

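RNA of 15 HCT116 samples (50 ng each) was counted on the nCounter PanCancer Pathways panel. The deposited raw file holds counts per probe, as deposited by the authors with no normalization. The authors' normalized file holds a linear signal from nSolver: after a subtraction based on the negative probes, set to at least 1, the counts were scaled by the geometric mean of the housekeeping genes, and 100% of its values were matched within 1% by that rule. The authors' fold changes and p-values, also deposited, were not used. No genome build is named for the counts, and the RefSeq promoter windows are on GRCh38.p14.

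The raw counts of 730 endogenous genes were scaled by the geometric mean of 40 housekeeping genes and fitted with edgeR 4.0.16 (quasi-likelihood test, 1 fit over all 5 groups, R 4.3.3, limma 3.58.1), without a filter on low counts. P-values were adjusted over all 730 genes by Benjamini-Hochberg, and a gene was called at 0.05 or less with a change of 1.5-fold or more. The 95% intervals come from the quasi-likelihood standard error and cover the spread between samples. The alternatives were TMM, DESeq2 1.42.0, a mean of at least 20 raw counts, counts under 20 set to 20, cartridge as a block, a replicate block, limma on log2 of the authors' normalized values plus 1, leaving out each sample, and, added after seeing the data, a fit on cartridge 1 alone. The code was tested on simulated counts.

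The 37 genes and the other gene lists were chosen with earlier results of these data known. Values in every sample are given for genes called against control, and the others by their range. No 2 samples of a group agreed within sampling noise.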

Additional observations from a re-analysis of the deposited data

How the results depend on the processing

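Numbers of the 37 genes called lower and higher are given in that order. TMM gave 3 and 3 with TQ, 4 and 2 with 5-FU, 5 and 2 with Combi, 3 and 2 with SARB, 2 and 4 for SARB against Combi, 4 and 1 for SARB against TQ and 6 and 1 for 5-FU against TQ. DESeq2 gave 4 and 3, 4 and 2, 5 and 2, 2 and 2, 2 and 5, 4 and 1, and 7 and 1 in the same order. Cartridge as a block gave 3 and 0 with TQ, 5 and 0 with 5-FU, 2 and 0 with Combi, 4 and 0 with SARB and 0 and 0 for SARB against Combi, and for 5-FU against TQ it and the fit on cartridge 1 alone gave 2 higher. It turned HDAC11 to 0.14 with 5-FU and 0.062 with SARB, and HDAC4 to 0.28, HDAC11 to 0.24 and PHF6 to 0.13 for SARB against Combi. Cartridges and groups overlap in part, so the cause was not tested. For SARB against TQ, limma on the authors' normalized values gave 1 higher. For SARB against 5-FU, counts under 20 set to 20 gave 1 lower. The filter on low counts kept all 49 calls of a gene in a comparison, TMM and DESeq2 28 each, the block for cartridge 19, limma 43 and the setting of low counts to 20 48.

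Same-numbered samples did not pair: 9 of 30 correlations of their deviations exceeded 0.1, from -0.67 to 0.39. A replicate block gave 1 lower for SARB against 5-FU and kept all 49 calls.

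Leaving out 1 sample at a time gave, lower and higher, 5 to 11 and 1 to 2 with TQ, 8 to 11 and 1 to 2 with 5-FU, 5 to 7 and 1 to 3 with Combi, 7 to 11 and 0 to 2 with SARB, 4 to 7 and 1 to 2 for SARB against Combi, 2 to 4 and 1 to 4 for SARB against TQ, 0 to 1 and 0 to 0 for SARB against 5-FU, and 1 to 3 and 1 to 3 for 5-FU against TQ. The 11 lower with TQ came without control 1. At the lowest counts (CREBBP, KAT2B, HDAC4 and SETBP1) depth limits the folds that could be called.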
